A study of Mus musculus with 2 samples.

Results

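The 10 genes described here encode transcription factors that lymphocytes use on the way from a naive, recirculating state to an effector state: Ikzf2, Ikzf4, Batf, Prdm1, Irf4, Rora, Maf, Nfil3, Tcf7 and Lef1. They were chosen by name, and all 10 were found among the 24785 genes of the deposited tables. Single-cell RNA-seq was performed on living CD45+ cells sorted from lungs of wild-type C57BL/6N mice, in 2 libraries. The BLM library came from lungs taken 15 days after bleomycin had been given into the trachea to injure them, and the naive library from untreated lungs. Each library pooled cells of 3 mice, so there was 1 library per group and no test between groups. The labels did not give the age of the mice. Levels are therefore given as unique molecular identifiers (UMIs, 1 per captured transcript) summed over a class of cells per 1000000 UMIs of the same cells (CPM), and shares are percentages of cells with at least 1 UMI. All intervals are exact 95% intervals that cover counting error only, not the spread between mice.

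After filtering, 4390 BLM and 3807 naive cells remained, with a median of 2380 and 2697 UMIs per cell. The 2 libraries had 22 cell barcodes in common. T-like cells numbered 801 and 685. A Foxp3 UMI was found in 75 of the BLM and 22 of the naive T-like cells, which are called Foxp3-positive. Most of the other T-like cells fell into CD4 (316 and 267 cells), CD8 (260 and 241), γδ (81 and 65) and cytotoxic T (41 and 67) classes. NK cells (137 and 246) and group 2 innate lymphoid cells (ILC2; 39 and 116) were named from their own clusters. The 10 genes took no part in the clustering. Marker UMIs mostly followed the names. Cd4 was found in 46.2% and 45.3% of CD4 cells and Cd8b1 in 68.1% and 74.3% of CD8 cells. Ncr1 was found in 51.8% and 63.8% of NK cells, and Il1rl1 in 89.7% and 91.4% of ILC2. In the activated part of the CD4 class Cd8b1 was found in 10.5% and 14.9% of cells, and in its naive-like part in 3.25% and 3.64%. Foxp3-positive cells held Cd4 in 62.7% and 36.4% of cells, Cd3e in 88.0% and 77.3%, and the B cell gene Cd79a in 1.33% and 13.6%. Trdc, which encodes the constant part of the δ chain, was found in 34.6% and 33.8% of the γδ class, and Cd4 in 1.23% and 3.08%. Free RNA was present in all classes: Lyz2, a myeloid gene, had a UMI in 79.6% to 92.3% of cells of the CD4, CD8, γδ, NK and ILC2 classes and of the Foxp3-positive cells.

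Tcf7 (TCF-1) and Lef1 are HMG-box factors that hold T cells in a naive or memory-like state and decline as cells become effectors. Batf pairs with Jun proteins and with Irf4 on composite DNA elements, and this pair helps open effector genes, Prdm1 (Blimp-1) among them, in activated T cells and tissue Treg precursors. Ikzf2 (Helios) and Ikzf4 (Eos) are Ikaros family zinc-finger proteins known from regulatory T cells (Tregs), in which Eos acts with Foxp3 as a co-repressor. Rora (RORα) is required for ILC2 development, Maf (c-Maf) directs IL-10 and IL-17 programmes, and Nfil3 (E4BP4) is required early in NK and ILC development.

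In GENCODE vM21 on GRCm38, Ikzf2 lies on chromosome 1 from 69531214 to 69687245 (minus strand) and Ikzf4 on chromosome 10 from 128630843 to 128645991 (minus strand). Tcf7 lies on chromosome 11 from 52252371 to 52283014 (minus strand) and Lef1 on chromosome 3 from 131110471 to 131224356 (plus strand). No exon base of the 10 genes was shared with an exon of another gene on the same strand. Exon bases shared with an antisense gene ranged from 0 to 1208 per gene, the highest in Lef1, and whether the counting used strand is not given in the sources used here. RefSeq start windows (GRCm38.p6) were found for 7 of the 10 genes, 11 windows in all, and Ikzf2, Ikzf4 and Maf had none. The 250 bases before each start were searched on both strands for CTTTGA, a core letter string of TCF/LEF sites, and for TGANTCA, the AP-1 element that Batf-Jun dimers bind. Of all 32851 windows, 13.8% held CTTTGA and 6.75% TGANTCA. Among the members' windows, CTTTGA was found at 2 places, both before start 4 of Lef1, and TGANTCA at 1 place, before the Prdm1 start. These 2 stretches are shown because Lef1 is one of 2 members that were lower together in Foxp3-positive cells of the BLM library, and Prdm1 is the member with an AP-1 element in its window. Both lie in an intron of the longest model of their own gene, at chr3:131156044-131156293 (plus strand) and chr10:44458749-44458998 (minus strand), and capitals mark the matches on either strand, so that TCAAAG is CTTTGA read from the other strand.
Lef1, start 4: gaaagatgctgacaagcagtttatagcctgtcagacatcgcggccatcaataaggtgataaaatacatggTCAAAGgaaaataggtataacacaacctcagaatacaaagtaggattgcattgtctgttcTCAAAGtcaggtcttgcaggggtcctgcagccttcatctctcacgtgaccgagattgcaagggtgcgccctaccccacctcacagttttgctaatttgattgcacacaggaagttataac
Prdm1: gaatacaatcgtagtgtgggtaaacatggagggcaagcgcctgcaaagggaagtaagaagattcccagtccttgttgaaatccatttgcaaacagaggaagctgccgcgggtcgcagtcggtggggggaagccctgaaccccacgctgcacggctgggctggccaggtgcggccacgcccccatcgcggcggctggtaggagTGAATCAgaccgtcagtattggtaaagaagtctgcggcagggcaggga
A match describes letters only and does not show a bound site.

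**Figure D1:**
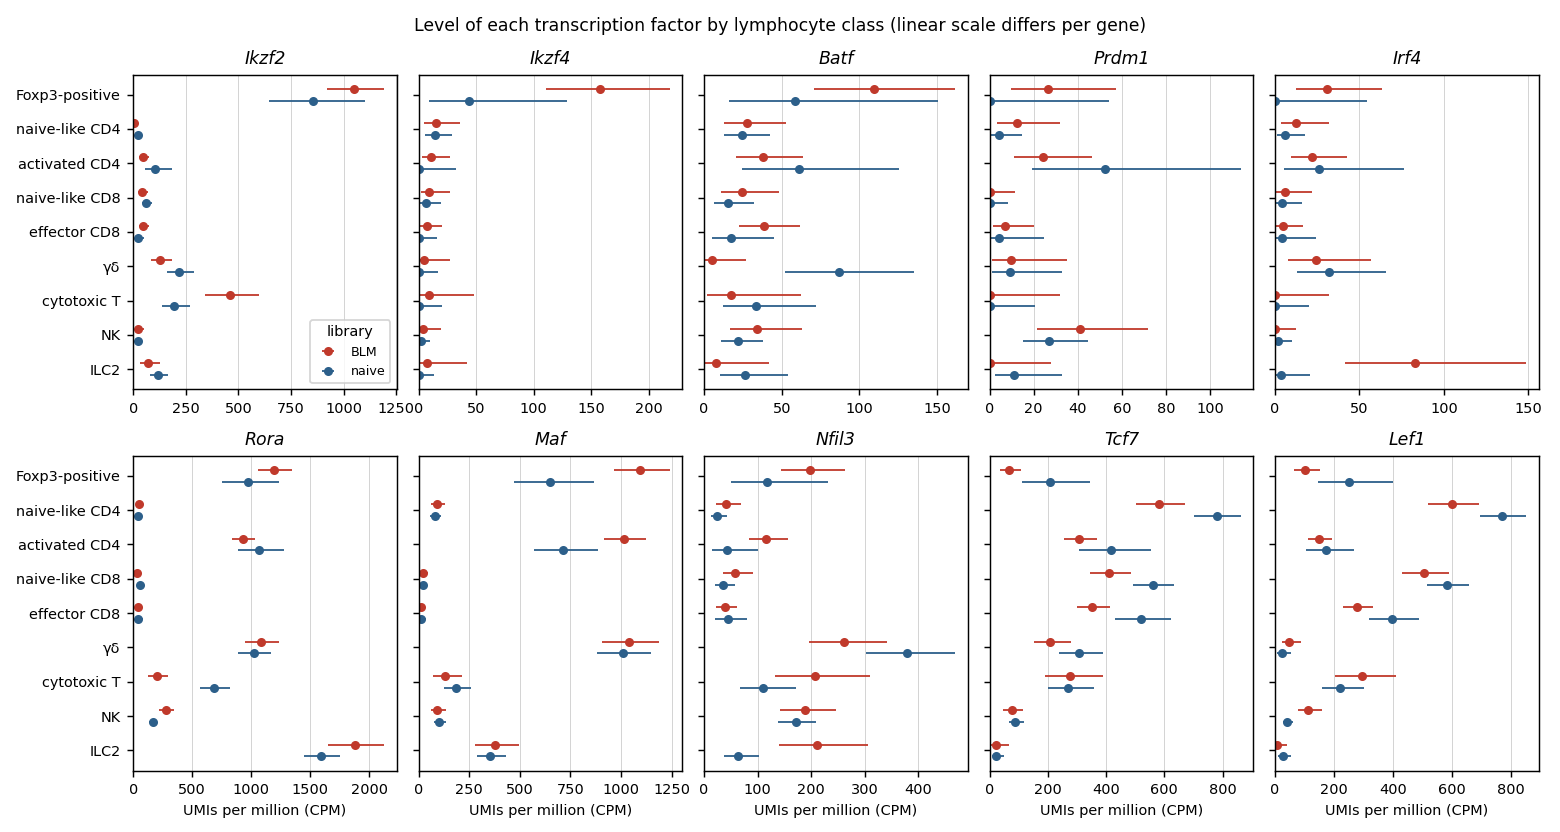
Summed level of each gene (CPM, linear axis that differs per gene) in 9 lymphocyte classes of the BLM (red) and naive (blue) libraries; points are class totals of 1 library and bars exact 95% Poisson intervals. Ikzf2 and Ikzf4 were highest in Foxp3-positive cells, Rora in ILC2, and Tcf7 and Lef1 in naive-like CD4 cells in both libraries.

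Ikzf2 was highest in Foxp3-positive cells of both libraries. It had 240 UMIs (1052 CPM, 923 to 1193) in 59 of 75 BLM cells and 58 UMIs (853 CPM, 648 to 1102) in 16 of 22 naive cells. The levels of both libraries overlapped, with a log2 ratio of BLM over naive of 0.30 (-0.12 to 0.74). The next class in the BLM library was the cytotoxic T class, at 459 CPM, below the Foxp3-positive cells and above the γδ class (126 CPM) beyond counting error. In the naive library the γδ class (219 CPM) and the cytotoxic T class (193 CPM) came next and did not differ beyond counting error. CD4 cells without a Foxp3 UMI were at 27.4 CPM in the BLM and 37.9 CPM in the naive library, and B cells, which mark the level of free RNA, at 3.74 and 2.93 CPM. Cells that clustered with Tregs but had no Foxp3 UMI held Ikzf2 in 12 of 14 BLM and 7 of 8 naive cells.

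Ikzf4 was sparser and its Foxp3-positive level differed between the libraries. It had 36 UMIs in 21 of 75 BLM cells (158 CPM, 110 to 218) and 3 UMIs in 2 of 22 naive cells (44.1 CPM, 9.10 to 129). The log2 ratio was 1.84 (0.18 to 4.18), a difference that rests on 3 naive UMIs. In the 8 naive Treg-cluster cells without a Foxp3 UMI it had 4 UMIs, and with the Treg sub-cluster in place of a Foxp3 UMI the log2 ratio was 0.82, which is under 2-fold. In the 8 other classes plotted Ikzf4 was at 15.5 CPM or lower.

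Batf, Irf4 and Prdm1 gave few UMIs in lymphocytes. Batf had 25 UMIs in 20 of 75 Foxp3-positive BLM cells (110 CPM, 70.9 to 162), above the next class, effector CD8 cells (38.7 CPM), beyond counting error. In the naive library it had 4 UMIs in 3 of 22 Foxp3-positive cells (58.8 CPM, 16.0 to 151), and the interval of the log2 ratio, 0.90 (-0.64 to 2.88), held 0. In γδ cells the order was the other way: 1 UMI in 81 BLM cells (4.85 CPM) and 19 UMIs in 15 of 65 naive cells (86.7 CPM, 52.2 to 135), a log2 ratio of -4.16 (-9.54 to -1.51). The call was lost with a mitochondrial limit of 10% and with marker gates (classes set by UMIs of marker genes in each cell in place of clusters), where the ratio had no finite value. Batf was also lower in BLM than in naive neutrophils (30.6 and 70.9 CPM) and similar in B cells (15.0 and 13.7 CPM), and the part of free RNA in the γδ difference was not tested. The γδ clusters themselves had 81 and 65 cells with a median of 2450 and 3047 UMIs.

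Irf4 had 7 UMIs in Foxp3-positive BLM cells and 0 in the 22 naive cells, where 0 of 22 cells allow a share of up to 13.6% by 3 counts of the total (exact 95% upper limit 15.4%). Prdm1 had 6 and 0 UMIs. Neither pair reached the 20 UMIs that were required for a call. In B cells, which use Irf4 in plasma cell formation, it stood at 128 and 83.6 CPM, and in neutrophils at 1.49 and 2.78 CPM. In BLM ILC2 it had 11 UMIs, 8 of them in 1 cell and all in 3 of 39 cells, against 1 UMI in 116 naive ILC2. Prdm1 was at 41.2 and 27.0 CPM in NK cells and at 24.3 and 52.2 CPM in activated CD4 cells, with overlapping intervals in each library. Among CD8 cells Prdm1 was found in 3 BLM cells and 1 naive cell, all of them effector CD8 cells. These shares of 1.15% (0.239 to 3.33) and 0.415% (0.0105 to 2.29) stood beside 1.10% and 2.68% of B cells and 2.30% and 1.77% of neutrophils, and the intervals of CD8 and B cells overlapped.

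Rora and Maf shared one pattern, high in Foxp3-positive, activated CD4 and γδ cells and low in naive-like and CD8 cells, but parted in ILC2. Rora was highest in ILC2, with 249 UMIs in 35 of 39 BLM cells (1879.6 CPM) and 426 UMIs in 93 of 116 naive cells (1591 CPM). Foxp3-positive cells had 1192 CPM (1054 to 1342) and 970.4 CPM (750.5 to 1235) of Rora, γδ cells 1082 and 1022 CPM and activated CD4 cells 933 and 1070.3 CPM, and none of these 3 classes stood above the next of them beyond counting error in either library. Set directly against activated CD4 cells, BLM Foxp3-positive cells were higher by a log2 ratio of 0.35 (0.12 to 0.59). CD8 cells were at 39.2 and 53.0 CPM. In the cytotoxic T class, where 6.93% of genes were called between the libraries, Rora was lower in the BLM library, at 199 against 685 CPM (log2 -1.78, -2.49 to -1.13). Ikzf2 was higher there, at 459 against 193 CPM (log2 1.25, 0.60 to 1.90). This class was mixed: Cd3e was found in 78.0% of BLM and 59.7% of naive cells, Ncr1 in 9.76% and 19.4%, and Trdc in 24.4% and 20.9%. The part of its make-up in these differences was not tested.

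Maf had 250 UMIs in 59 of 75 Foxp3-positive BLM cells (1095 CPM, 964 to 1240) and 44 UMIs in 7 of 22 naive cells (647 CPM, 470.0 to 868). The summed levels differed by a log2 ratio of 0.76 (0.29 to 1.26), short of 2-fold. The shares differed more, 78.7% (67.7 to 87.3) against 31.8% (13.9 to 54.9), and 56.3% against 23.2% when each cell was thinned to 1000 UMIs. The naive UMIs were unevenly held, with 18 of the 44 in 1 cell. In γδ cells Maf was found in 81.5% and 84.6% of cells at 1038 and 1008 CPM, and the log2 ratio of 0.04 (-0.24 to 0.32) had an interval that did not reach 2-fold. ILC2 held 377 and 355 CPM, less than the activated CD4 cells (1016 and 714 CPM), and CD8 cells 16.97 and 19.2 CPM.

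Nfil3 was highest in γδ cells of both libraries, at 262 CPM (197 to 342) and 379 CPM (301 to 469). In the BLM library the γδ, ILC2, cytotoxic T, Foxp3-positive and NK classes, from 262 down to 189 CPM, did not differ from their neighbours beyond counting error. In the naive library γδ cells stood above NK cells (171 CPM), the next in order. ILC2 differed between the libraries, with 28 UMIs in 13 of 39 BLM cells (211 CPM, 140 to 306) and 17 UMIs in 10 of 116 naive cells (63.5 CPM, 37.0 to 102), a log2 ratio of 1.74 (0.82 to 2.70). Neutrophils also held Nfil3, at 443 and 410 CPM, and B cells had a UMI in 5.02% and 6.08% of cells, at 34.4 and 36.7 CPM. S100a8, a neutrophil gene, was at 15.1 CPM in BLM and 52.3 CPM in naive ILC2, and the part of free RNA in the Nfil3 difference was not tested.

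Tcf7 and Lef1 were highest in naive-like CD4 cells and lowest in ILC2 or γδ cells. Tcf7 was at 582 CPM (BLM) and 779.8 CPM (naive) in naive-like CD4 cells and at 22.6 and 22.4 CPM in ILC2. Lef1 was at 600.2 and 769.6 CPM in naive-like CD4 cells and at 7.55 and 26.1 CPM in ILC2. The γδ class separated the pair, with Tcf7 at 209 and 306 CPM and Lef1 at 48.5 and 22.8 CPM. The class named effector CD8 held both, at 352 and 519 CPM of Tcf7 and 277 and 396 CPM of Lef1. That name was a near tie, with a marker score of 0.974 for effector CD8 and 0.93 for naive-like CD8. The class may therefore hold cells that are not effectors. In B cells both genes were at 6.85 CPM or lower.

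In Foxp3-positive cells both were lower in the BLM library. Tcf7 had 15 UMIs in 7 of 75 BLM cells (65.7 CPM, 36.8 to 108) and 14 UMIs in 8 of 22 naive cells (206 CPM, 112 to 345), a log2 ratio of -1.65 (-2.80 to -0.49). Lef1 had 23 UMIs in 16 of 75 BLM cells (101 CPM, 63.9 to 151) and 17 UMIs in 9 of 22 naive cells (249.9 CPM, 146 to 400.2), a log2 ratio of -1.31 (-2.28 to -0.31). The median depth of these cells was close, 2765 and 2713 UMIs, and the shares thinned to 1000 UMIs kept the order, 5.002% against 19.4% for Tcf7 and 8.62% against 19.4% for Lef1.

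**Figure D2:**
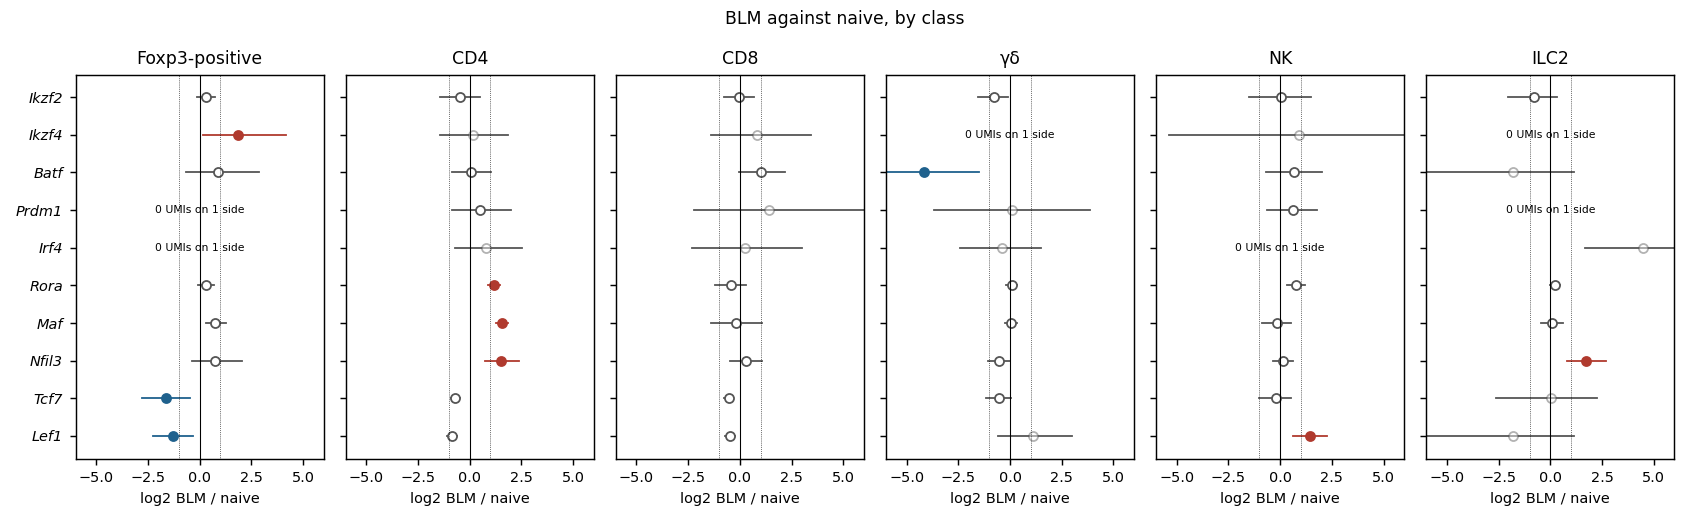
Log2 ratio of CPM, BLM over naive, for each gene in 6 classes, 1 library per group; bars are exact 95% counting intervals clipped at the axis, filled points passed the call rule, faint points had fewer than 20 UMIs, dotted lines mark 2-fold. Tcf7 and Lef1 were lower and Ikzf4 higher in Foxp3-positive cells, Maf, Rora and Nfil3 higher in CD4 cells, Batf lower in γδ cells, Lef1 higher in NK cells and Nfil3 higher in ILC2.

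A gene was called different between the libraries when both sides together held 20 or more UMIs, the ratio was 2-fold or more and its interval left out 0. In Foxp3-positive cells 8 members passed the UMI minimum, 1 was called higher (Ikzf4) and 2 lower (Tcf7 and Lef1), beside 6.18% of 2703 genes called higher and 5.96% called lower. The median log2 ratio of the 8 was 0.52, and that of all 2703 genes 0.03. In CD4 cells 3 of 8 were called higher and 0 lower, beside 3.17% of 6584 genes higher and 3.89% lower. In CD8 cells none of 7 was called, beside 1.79% of genes higher and 3.89% lower. In γδ cells 1 of 6 was called lower (2.94% of genes) and 0 higher (2.62%), in NK cells 1 of 8 higher (1.25%) and 0 lower (2.96%), and in ILC2 1 of 4 higher (3.21%) and 0 lower (4.2%).

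The CD4 calls were Maf (log2 1.54, 1.25 to 1.84), Nfil3 (1.53, 0.72 to 2.40) and Rora (1.15, 0.87 to 1.44). Maf went from 122 UMIs (201 CPM) in the naive to 406 UMIs (586 CPM) in the BLM library, Rora from 142 (234 CPM) to 361 (521 CPM) and Nfil3 from 17 (28.1 CPM) to 56 (80.8 CPM). The make-up of the CD4 class differed as well: activated cells were 51.3% of the BLM and 17.6% of the naive CD4 cells. Within the activated cells, where 7.24% of genes were called, Maf had a log2 ratio of 0.51 (0.16 to 0.87), Rora of -0.20 (-0.50 to 0.11) and Nfil3 of 1.42 (0.08 to 3.11), the last of these called from 43 and 5 UMIs. Within the naive-like cells, with 5.03% of genes called, the log2 ratios were 0.19 for Maf, 0.36 for Rora and 0.72 for Nfil3, none of them called. Weighted so that both sub-classes counted the same in each library, the CD4 log2 ratios were 0.48 for Maf, -0.18 for Rora and 1.20 for Nfil3. Tcf7 (log2 -0.71, -0.92 to -0.49) and Lef1 (-0.87, -1.10 to -0.64) were lower in BLM CD4 cells by less than 2-fold, and in naive-like cells alone by -0.42 (-0.68 to -0.17) and -0.36 (-0.62 to -0.11). Without integration and with marker gates, Lef1 was called lower in CD4 cells, and with marker gates Nfil3 was not called.

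Within a library, activated CD4 cells were set against naive-like ones. These sub-classes were cut from other genes of the same cells, so the ratios are descriptions. Rora was higher in activated cells by a log2 ratio of 4.24 (3.52 to 5.06) in the BLM and 4.79 (4.09 to 5.57) in the naive library, and Maf by 3.45 (2.92 to 4.04) and 3.13 (2.57 to 3.71). Lef1 was lower by -2.01 (-2.47 to -1.57) and -2.14 (-2.87 to -1.50), and Tcf7 by -0.92 and -0.90, under 2-fold in both. Nfil3 was called higher in the BLM (43 and 13 UMIs, log2 1.53, 0.61 to 2.55) and Ikzf2 in the naive library (12 and 11 UMIs, log2 2.22, 0.91 to 3.54). In the BLM library Ikzf2 had 18 and 1 UMIs (log2 3.98, 1.31 to 9.36), short of the 20 required for a call. Of all genes that passed the minimum, 16.2% and 12.3% were called in this contrast. In effector against naive-like CD8 cells Lef1 was lower by -0.87 (-1.22 to -0.52) and -0.56 (-0.92 to -0.21), and Tcf7 by -0.22 (-0.56 to 0.12) and -0.11 (-0.44 to 0.21). In this contrast Ikzf2 was the one member called, lower in naive effector cells by -1.44 (-3.18 to -0.05) from 5 and 27 UMIs, where the BLM ratio was 0.15 (-0.89 to 1.24), beside 8.51% of genes in the BLM and 4.76% in the naive library.

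In NK cells Lef1 was higher in the BLM library, with 33 UMIs in 25 of 137 cells (113 CPM) against 23 UMIs in 21 of 246 cells (41.4 CPM), a log2 ratio of 1.45 (0.64 to 2.29). Tcf7 did not follow, at 75.5 and 88.2 CPM (log2 -0.22, -1.02 to 0.53). Cd3e, a T cell gene, was found in 1.46% and 1.63% of these NK cells. When NK cells were gated on Ncr1 and Klrb1c UMIs, which left 50 and 129 cells, the log2 ratio of Lef1 was 0.21. Rora was higher by 0.76 (0.31 to 1.21) in BLM NK cells, short of 2-fold, and Nfil3 was level at 189 and 171 CPM.

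**Figure D3:**
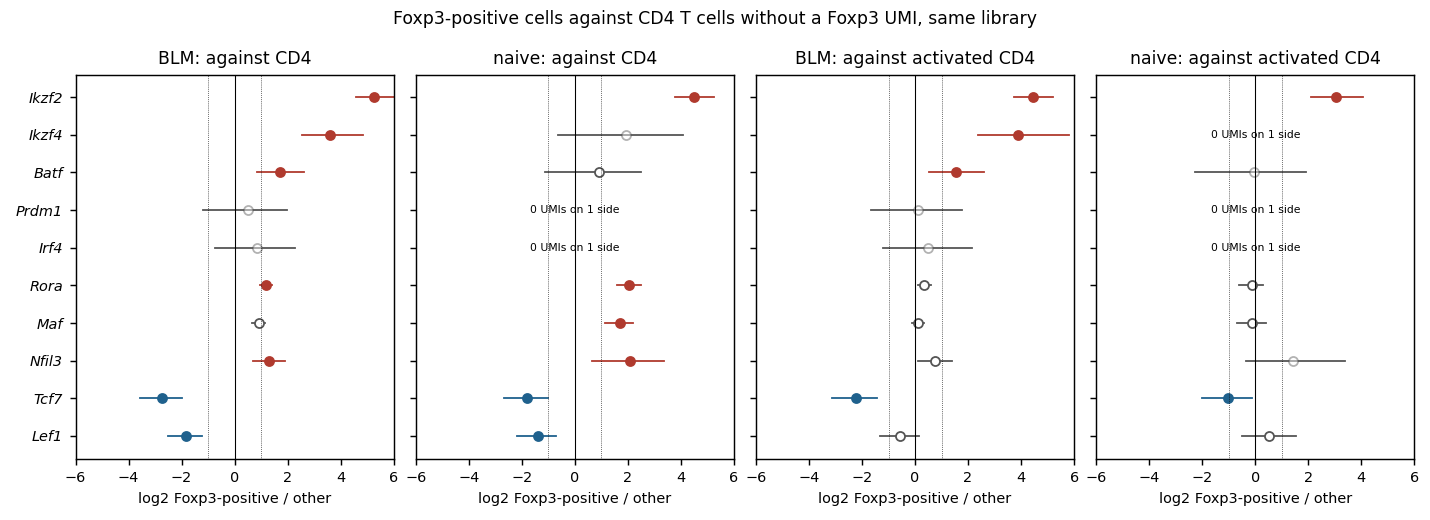
Log2 ratio of CPM, Foxp3-positive cells over CD4 cells without a Foxp3 UMI (left pair) or over activated CD4 cells (right pair), within the BLM and naive libraries; bars are exact 95% counting intervals clipped at the axis and filled points passed the call rule. Ikzf2 was higher and Tcf7 lower in Foxp3-positive cells in all 4 panels, while Rora and Maf were close to 0 against activated CD4 cells.

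Foxp3-positive cells were next compared with CD4 cells of the same library, which share its preparation. The CD4 class held naive-like and activated cells only. Treg sub-cluster cells without a Foxp3 UMI (14 BLM and 8 naive), most of which held Ikzf2, were on neither side. In the BLM library 5 members were called higher and 2 lower, beside 7.99% of 5617 genes called higher and 6.23% lower. They were Ikzf2 (log2 5.26, 4.59 to 6.02), Ikzf4 (3.60, 2.52 to 4.84), Batf (1.72), Nfil3 (1.29) and Rora (1.19), and, in the other direction, Tcf7 (-2.73, -3.58 to -1.98) and Lef1 (-1.83, -2.52 to -1.22). Maf was higher by 0.90 (0.67 to 1.13), under 2-fold. With marker gates, Batf fell to 0.90 and Rora to 0.38, neither called. Over 10 alternative settings the BLM ratio ranged from 2.90 to 8.41 for Ikzf2 and from 2.20 to 3.72 for Ikzf4. In the naive library 4 were called higher, Ikzf2 (4.49, 3.77 to 5.25), Nfil3 (2.07, 0.65 to 3.36), Rora (2.05, 1.61 to 2.48) and Maf (1.68, 1.15 to 2.19), and 2 lower, Tcf7 (-1.79, -2.67 to -1.03) and Lef1 (-1.39, -2.19 to -0.70), beside 5.27% of 4913 genes called higher and 2.36% lower. The Nfil3 call was lost with marker gates. The Foxp3 UMI that defines these cells is no member, and no member chose them.

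Set against activated CD4 cells alone, fewer members stood apart. Ikzf2 remained higher by 4.43 (3.74 to 5.21) in the BLM and 3.03 (2.12 to 4.06) in the naive library, and Tcf7 lower by -2.23 (-3.11 to -1.45) and -1.02 (-1.99 to -0.14). Ikzf4 (3.87, 2.39 to 5.82) and Batf (1.53, 0.53 to 2.59) were called higher in the BLM library. Rora differed by 0.35 (0.12 to 0.59) and -0.14 (-0.60 to 0.30), Maf by 0.11 (-0.13 to 0.34) and -0.14 (-0.70 to 0.40), and Lef1 by -0.56 (-1.33 to 0.17) and 0.52 (-0.50 to 1.53), all under 2-fold. Of all genes, 11.8% and 8.5% were called in these comparisons.

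Most Foxp3-positive cells clustered with Tregs, 59 of 75 in the BLM and 16 of 22 in the naive library. Of the other 16 BLM cells, 12 lay with activated CD4, 3 with naive-like CD4 and 1 with naive-like CD8 cells. Of the other 6 naive cells, 4 lay with naive-like CD4, 1 with activated CD4 and 1 with effector CD8 cells. Within the Treg sub-cluster alone, Foxp3-positive BLM cells had 26.6 CPM of Tcf7 (5 UMIs) and naive library cells 153 CPM (8 UMIs). Together these Tcf7 UMIs fell short of the minimum required for a call. Lef1 was at 85.1 CPM (16 UMIs) in the BLM and 229 CPM (12 UMIs) in the naive library. No interval between the libraries is given for these levels, and they are descriptions. In the 16 BLM cells outside the Treg sub-cluster Ikzf2 was at 447 CPM against 1181 CPM inside it (log2 1.40, 0.71 to 2.18) and Rora at 521 against 1336 CPM (1.36, 0.71 to 2.08). Tcf7 was at 248 against 26.6 CPM (-3.22, -5.12 to -1.54), from 10 and 5 UMIs. Maf did not follow these genes, at 1265 against 1059 CPM (-0.26, -0.71 to 0.22). A further 14 BLM and 3 naive cells with a Foxp3 UMI lay in the cycling cluster and were not counted.

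Within single Foxp3-positive cells of the BLM library, Tcf7 and Lef1 were found together in 4 of 75 cells, where the product of their shares gives 1.49 cells. Rora and Maf were together in 46 cells (product 43.3), Ikzf2 and Maf in 49 (46.4), Ikzf2 and Ikzf4 in 17 (16.5) and Ikzf2 and Tcf7 in 3 (5.51). Batf was found with Rora in 18 of its 20 cells (product 14.7) and with Maf in 18 (15.7), and with Prdm1 in 0 (1.33). In the 22 naive cells Tcf7 and Lef1 were together in 3 (product 3.27) and Rora and Maf in 5 (4.77). Deep cells hold UMIs of more genes, so counts above the product are no evidence of a link.

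**Figure D4:**
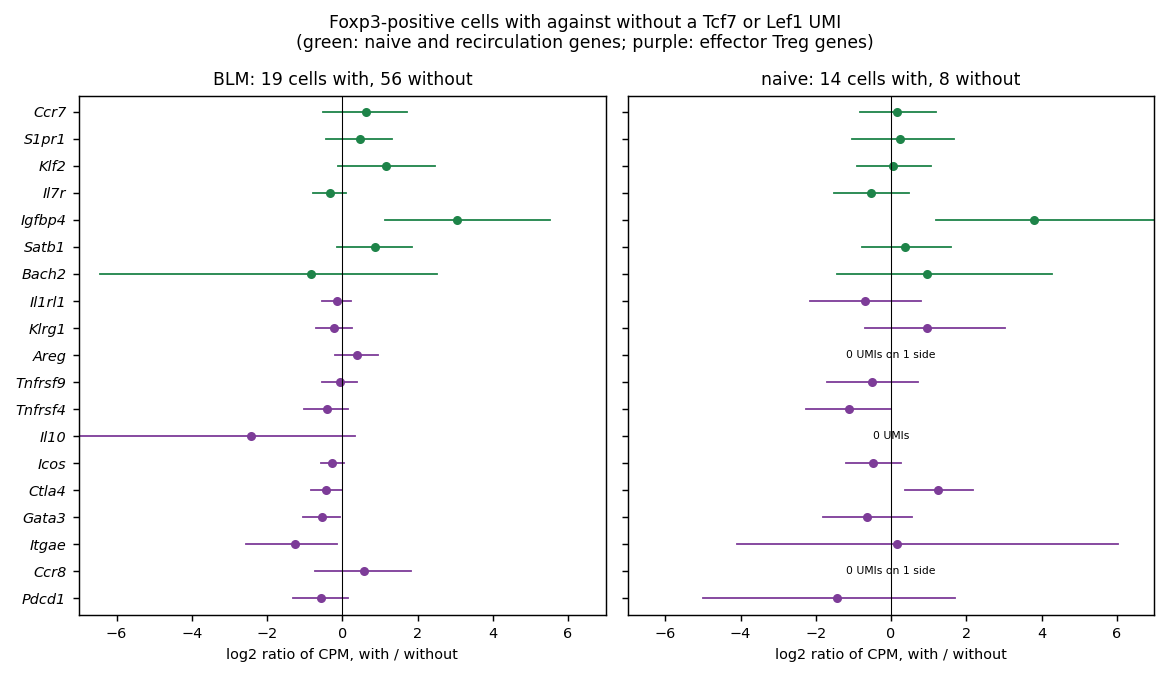
Log2 ratio of CPM in Foxp3-positive cells with over those without a Tcf7 or Lef1 UMI, for 7 naive and recirculation genes (green) and 12 effector Treg genes (purple), in the BLM (19 and 56 cells) and naive (14 and 8 cells) libraries; bars are exact 95% counting intervals clipped at the axis. Igfbp4 stood above 0 in both libraries, and most other intervals held 0.

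A Tcf7 or Lef1 UMI was found in 19 of 75 BLM and 14 of 22 naive Foxp3-positive cells. In the BLM library the cells with one had 7789 CPM (7150 to 8470) of 12 effector Treg genes in sum and those without 9404 CPM (8932 to 9895), a log2 ratio of -0.27 (-0.42 to -0.13). With each cell thinned to 1000 UMIs and split again, it was -0.31 (-0.66 to 0.02), an interval that held 0. The 7 naive and recirculation genes summed to 1937 and 1702 CPM (log2 0.19, -0.12 to 0.49), and thinned the ratio was 0.71 (0.10 to 1.29). In the naive library the same log2 ratios were -0.21 (-0.56 to 0.15) and 0.31 (-0.11 to 0.75). Thinned and split again, the effector ratio of the naive library was -2.69 (-4.99 to -1.09), from 3 UMIs in 4 cells with a Tcf7 or Lef1 UMI and 87 UMIs in 18 cells without, and that of the naive and recirculation genes 0.15 (-0.78 to 0.98). The cells with a UMI were deeper, with a median of 3167 against 2664 UMIs in the BLM and 2847 against 2526 in the naive library. Igfbp4, a gene of naive T cells, was the one gene of these lists higher beyond counting error in both libraries, with 11 and 3 UMIs in BLM (log2 3.04, 1.12 to 5.53) and 25 and 1 UMIs in naive cells (3.80, 1.19 to 9.16). Few cells carried it: the 11 UMIs lay in 2 of 19 cells and the 25 UMIs in 3 of 14 cells. Ctla4, of the effector list, was lower in BLM (log2 -0.42, -0.84 to -0.02) and higher in naive cells (1.24, 0.38 to 2.19) with a Tcf7 or Lef1 UMI. Thinned, both Ctla4 intervals held 0. The other effector genes with full-depth intervals without 0 were lower: Gata3 and Itgae in BLM, and Areg and Tnfrsf4 in naive cells. At full depth Maf in BLM cells was at 797 CPM with and 1228 CPM without a Tcf7 or Lef1 UMI, and in naive cells 43 of its 44 UMIs lay in the 14 cells with one. Thinned, the naive split was 3 and 10 UMIs (log2 0.43, -2.07 to 2.39) and the BLM ratio -1.08 (-2.44 to 0.02), and both intervals held 0.

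Of 40 other lymphocyte transcription factors, 27 passed the UMI minimum in Foxp3-positive cells, and 5 were called higher and 5 lower in the BLM library, beside the shares of all genes given above. The highest were Tox2 (29 and 0 UMIs), Bcl6 (21 and 1 UMIs, log2 2.65, 0.01 to 8.02) and Hopx (2971 and 779 CPM, log2 1.93, 1.53 to 2.36). With 3 UMIs put in place of 0, Tox2 was 2.88-fold higher, and the lower limit of its log2 ratio was 1.14. The lowest were Klf2, which drives S1pr1 in recirculating T cells (105 and 632 CPM, log2 -2.59, -3.37 to -1.83), Jun (35.1 and 206 CPM, -2.55) and Satb1 (166 and 485 CPM, -1.54). The median log2 ratio of the 27 was 0.25.

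In CD4 cells 3 of the 35 factors that passed were called higher, Bhlhe40 (log2 1.84), Hopx (1.24) and Ikzf3 (1.06), and 2 lower, Tbx21 (-1.47) and Myb (-1.05). Within activated CD4 cells the ratios were 0.55 for Bhlhe40, -0.25 for Hopx and 0.26 for Ikzf3, none of them called. In CD8 cells 3 of 33 were called higher, Tbx21 (1.56), Hopx (1.43) and Bhlhe40 (1.41), and 1 lower, Runx1 (-1.68). Cells of the class named effector CD8, a near tie with naive-like CD8, were 48.1% of the BLM and 27.0% of the naive CD8 cells. Within effector CD8 cells the ratios were 0.81 (-0.68 to 2.61) for Tbx21, 1.11 (0.51 to 1.76) for Hopx, 0.69 (-0.50 to 2.05) for Bhlhe40 and -2.88 (-4.66 to -1.41) for Runx1. Tbx21, which encodes T-bet, thus had opposite signs in the 2 classes, from 7 and 17 UMIs in CD4 and 20 and 6 UMIs in CD8 cells. In γδ cells 2 of 26 were higher, Hopx (1.67) and Tox (1.41), and 1 lower, Stat3 (-1.39, from 28 and 78 UMIs). In NK cells 1 of 32 was lower, Stat3 again (-1.09, from 113 and 460 UMIs), and in ILC2 none of 23 was called. Hopx was called higher in the Foxp3-positive, CD4, CD8 and γδ classes, but not in the cytotoxic T class (-0.20, -0.90 to 0.47) or in NK cells (0.73, 0.23 to 1.22).

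Over the 18 profiles of 9 classes in 2 libraries, Pearson's r of log2(CPM + 10) between members was highest for Rora and Maf (0.90) and for Tcf7 and Lef1 (0.81) and lowest for Rora and Lef1 (-0.76) and Nfil3 and Lef1 (-0.72). These profiles share libraries and differ in depth, and r is given as a description. Among 7907 genes with 50 or more UMIs, the closest to Lef1 were Actn1 (0.96) and Foxp1 (0.95), to Tcf7 S1pr1 (0.92) and Pja1 (0.91), to Rora Fam129a (0.95) and S100a4 (0.93), and to Maf Pkp3 (0.93) and Ccr4 (0.91). Ikzf4 was closest to Neb (0.90) and Foxp3 (0.86), Ikzf2 to Uqcrb (0.90) and Spock2 (0.83), and Nfil3 to Myo1e (0.85) and Calr (0.84). The classes were split by the Foxp3 UMI, so Foxp3 had UMIs in the Foxp3-positive profiles alone. Its r with Ikzf4 is therefore largely set by the class definition. Batf (Lsm6, 0.84, and Tpm1, 0.81), Irf4 (Rab11fip1, 0.79) and Prdm1 (Car5b, 0.81, and Cx3cr1, 0.77) rest on few UMIs, as does Ikzf4.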

How the data were processed

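Living CD45+ lung cells of 2 libraries were read on the BD Rhapsody system with the whole transcriptome kit. The deposited values are whole UMI counts per cell and gene, made by the authors with the BD Rhapsody WTA pipeline 1.8 on GRCm38 with GENCODE vM19, per the file headers; the tables hold 4714 BLM and 4062 naive barcodes. Here a cell needed at least 200 genes and no more than 15% of its UMIs from mitochondrial genes (4526 and 3925). An automatic doublet caller (scanpy 1.11.5) marked 9 and 54 cells, under 0.5% of the BLM cells, so the highest-scoring 3% of each library were left out instead. The libraries were integrated and clustered with Seurat 5.3.0 in R 4.3.3 (2000 variable genes without the members, 30 dimensions, 20 for the T sub-clusters, resolution 0.5). A cluster was T-like where at least 50% of cells held a Cd3e UMI. Clusters were named from fixed markers. A T sub-cluster led by interferon-response genes (14 and 15 cells) had no name and was left out. Treg sub-cluster cells without a Foxp3 UMI (14 and 8) belonged to none of the compared classes in the main setting.

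Levels were UMIs of a class per 1000000, with exact Poisson intervals. Shares had exact Clopper-Pearson intervals. Log2 ratios had exact conditional intervals. These cover counting error only. No test between groups was possible. The ratio, its interval and the call rule were tested on simulated independent counts at the depth of all T-like cells. That simulation does not cover small classes or UMIs that are unevenly held by single cells. The members are always named. Of the other transcription factors, the 3 highest and 3 lowest called per class are named, and for each member the 2 genes most like it. One gene of the naive and recirculation list and one gene most like Irf4 are not reported here. The members and lists were chosen with earlier results of these data known. The alternatives were doublets, mitochondrial limit, resolution, integration, class definition, scaling and UMI minimum.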

Additional observations from a re-analysis of the deposited data

How the results depend on the processing

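Each count of called members was recomputed under 10 alternatives. No paired analysis was possible because each group had 1 library. In Foxp3-positive cells the count of 3 became 5 with the mean over cells of each cell's CPM, which adds Maf and Nfil3 and has no interval, and 1 (Lef1) with marker gates on UMIs, which left 73 and 14 cells. In CD4 cells it went from 3 to 0 at resolution 0.3, where activated CD4 cells joined the Treg sub-cluster. It went to 4 without integration, where Lef1 was also called lower. With marker gates it was 4 as well: Ikzf2, Rora and Maf higher, Lef1 lower, and Nfil3 not called. In CD8 cells it went from 0 to 2 with doublets kept (Rora and Maf, lower), to 2 without integration (Ikzf2 and Nfil3, higher) and to 1 with marker gates (Maf, lower). In γδ cells it went from 1 to 0 with a mitochondrial limit of 10%, which left 65 and 40 cells, and to 0 with marker gates (28 and 20 cells). In NK cells it went from 1 to 2 with marker gates (Rora and Tcf7 in place of Lef1), and in ILC2 from 1 to 2 with no minimum of UMIs (Irf4 added). The cause of these moves was not tested. Counts of Foxp3-positive against CD4 cells stayed within 1.5 times under all 10, though marker gates lost Batf and Rora in the BLM and Nfil3 in the naive library. Every called ratio that had a finite value kept its sign under these 10. One more alternative, chosen after seeing the data, weighted naive-like and activated CD4 cells the same: the Rora ratio in CD4 cells then reversed to -0.18, and Ikzf2 (-1.29) and Nfil3 (1.20) were past 2-fold. These weighted ratios have no interval. The Ikzf2 value takes in 1 BLM UMI of naive-like CD4 cells, and marker gates called Ikzf2 in the opposite direction, higher in BLM CD4 cells. Between BLM and naive in the main setting, Irf4, and Ikzf4 outside Foxp3-positive cells, stayed under the 20 UMIs required for a call in the 6 classes compared. Against CD4 cells in the BLM library, Irf4 was called higher with the Treg sub-cluster in place of a Foxp3 UMI. The marker gate was set without Lyz2 after its UMIs were seen in most lymphocytes.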
